A study of Homo sapiens with 40 samples.

Results

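The genes for 5 secreted hormones that respond to cellular stress, GDF15, FGF21, INHBE, ADM2 and STC2, were followed across HEK293T cells, a human embryonic kidney line. They were picked by symbol out of the 28278 genes of the deposited count table, and each is described in 5 lines with and without antimycin A, which blocks complex III of the respiratory chain. The lines were knockout cells (sgSLC25A12) given SLC25A12-F137S together with dMTS-DELE1 (dMTS-DELE1 cells), knockout cells given SLC25A12-F137S (F137S cells), knockout cells labelled as given SLC25A12-WT, knockout cells with vector (KO vector) and wild-type cells with vector (WT vector). Each line received 40 nM antimycin A or vehicle for 6 hours, with 4 libraries per line and treatment and 40 libraries in all. SLC25A12 encodes a mitochondrial carrier of aspartate and glutamate, and DELE1 is the protein that carries stress signals out of mitochondria. The letters dMTS are not spelled out in the labels, which also do not say what promoter drives the introduced cDNAs or whether the knockout cells are 1 clone. The labels call the libraries biological replicates without saying that they were separate cultures, so every p-value measures only the spread between these libraries.

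In the integrated stress response, kinases phosphorylate the initiation factor eIF2, which lowers general protein synthesis and raises translation of the transcription factor ATF4. Mitochondrial damage reaches this pathway when the protease OMA1 cuts DELE1, which then activates the kinase HRI, encoded by EIF2AK1. ATF4 and its partners bind C/EBP-ATF response elements near genes for amino acid metabolism and for secreted factors. GDF15 signals to the brainstem through GFRAL and RET and suppresses appetite. FGF21 is a hormone known mostly from liver that acts through FGFR1 and the co-receptor KLB. INHBE encodes the subunit of activin E, ADM2 a peptide of the calcitonin family that acts through CALCRL with a RAMP protein, and STC2 a glycoprotein that inhibits the protease PAPP-A.

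The genes lie on 4 chromosomes of GRCh38.p14, the RefSeq annotation of the build named by the submitters. GDF15 occupies chr19:18386158-18389176 and FGF21 occupies chr19:48755524-48758330. INHBE lies at chr12:57455307-57458025, ADM2 at chr22:50481543-50486437 and STC2 at chr5:173314723-173328414. Stretches upstream of 2 of the genes are shown because these genes had the largest log2 fold changes of the 5 between dMTS-DELE1 and F137S cells in vehicle and differ in the element searched. The letters TGATGNAA, the core of a C/EBP-ATF response element, were looked for on both strands. Capitals mark a match, and both stretches run on the + strand up to the base before the gene.
FGF21: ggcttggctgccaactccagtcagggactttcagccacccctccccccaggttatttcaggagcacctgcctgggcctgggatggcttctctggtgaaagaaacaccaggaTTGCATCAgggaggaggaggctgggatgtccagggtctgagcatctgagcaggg
GDF15: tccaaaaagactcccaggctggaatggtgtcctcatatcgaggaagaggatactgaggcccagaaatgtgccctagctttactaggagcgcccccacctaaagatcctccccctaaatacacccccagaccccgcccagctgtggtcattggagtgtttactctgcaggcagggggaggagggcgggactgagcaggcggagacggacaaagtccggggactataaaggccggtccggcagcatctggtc
The FGF21 stretch, chr19:48755359-48755523, is the whole 165 bases between FGF21 and FUT1, a fucosyltransferase gene that starts on the opposite strand. Its match, read on the other strand, ends 47 bases before the FGF21 start. The GDF15 stretch, chr19:18385908-18386157, holds no match. In windows of 300 bases around gene starts, 3.62% of 35116 RefSeq promoters held TGATGNAA and 1.85% held TGACGTCA, the cyclic AMP response element, a palindrome. Of the 4 hormone genes with a promoter entry, FGF21, GDF15, ADM2 and STC2, only FGF21 held the first, and none held the second. These are matches of letters, and binding was not measured.

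The libraries held 30.7 to 32 counts each in units of 1e6, and 16739 genes passed the filter on low counts. All 5 hormone genes passed, although FGF21 had more than 4 counts in a library only in dMTS-DELE1 cells. Of the HEK293 marker list, 7 of 7 genes were tested, with a summed level of 209 to 442 CPM (counts per 1e6 counts of the library) over the groups. Sums for other types were lower. They were 0.213 to 0.936 CPM for 4 hepatocyte genes, 17.2 to 21.4 for 4 fibroblast genes and 2.02 to 3.33 for 4 macrophage genes. For 3 adipocyte genes they were 1.12 to 2.99 and for 5 kidney tubule genes 4.74 to 11, with UMOD at 0 in every library. Single genes of a list differed widely. Group mean counts were 1530 to 2580 for NEFL and 1700 to 7040 for NEFM, but 64 to 92 for PAX2, all of the HEK293 list. COL1A1 of the fibroblast list had 534 to 637, and LRP2 of the kidney tubule list had 109 to 313. In vehicle, the targeted gene SLC25A12 averaged 3720 CPM in dMTS-DELE1 cells, 1850 in F137S cells, 3.08 in KO-vector cells and 38.7 in WT-vector cells. DELE1 averaged 5340 CPM in dMTS-DELE1 cells and 45.9 in F137S cells. The 8 libraries labelled KO+SLC25A12-WT had 38.9 CPM of SLC25A12 in vehicle. By edgeR's quasi-likelihood test, 0 genes differed between them and WT-vector cells in vehicle and 1 gene in antimycin A, with 778 and 805 genes at an unadjusted p under 0.05 and 0 and 1 genes called by DESeq2's Wald test, whereas 8004 and 8076 genes differed from KO-vector cells. Their data go against their label, so they are called by it throughout, and no comparison between the other lines sets them against another group, although they enter the filter and the spread of the 1 fit over all libraries.

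The level of a gene is given in CPM, and log2 fold changes come from 1 edgeR quasi-likelihood fit over the 40 libraries, ± a standard error, with n = 4 per group. A gene rose or fell where the Benjamini-Hochberg adjusted p over all 16739 genes was under 0.05. Where a hormone gene had under 10 counts per library on average in both groups, its raw counts and an exact two-sided permutation test of 4 against 4 libraries are given instead, whose smallest possible p is 0.0286. Other genes that passed the filter were tested by edgeR whatever their counts.

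Every hormone gene was highest in dMTS-DELE1 cells, and in each case the 8 libraries of that line lay above all 32 others. STC2 was by far the most abundant. Per kilobase of exon in vehicle, it stood at 42 CPM in dMTS-DELE1 cells and 18.1 in WT-vector cells. INHBE had 8.39 CPM per kilobase in dMTS-DELE1 cells and 0.184 in WT-vector cells, GDF15 had 5.04 and 0.0796, ADM2 had 1.95 and 0.349, and FGF21 had 0.942 and 0.0379, in the same order of lines. In WT-vector cells the order per kilobase was thus STC2, ADM2, INHBE, GDF15 and FGF21, whereas in dMTS-DELE1 cells INHBE and GDF15 stood above ADM2. The lengths join all GENCODE exons of a gene, while the annotation used for counting is not known. For INHBE they give 3015 bases, more than its RefSeq span, so levels per kilobase are approximate.

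**Figure D1:**
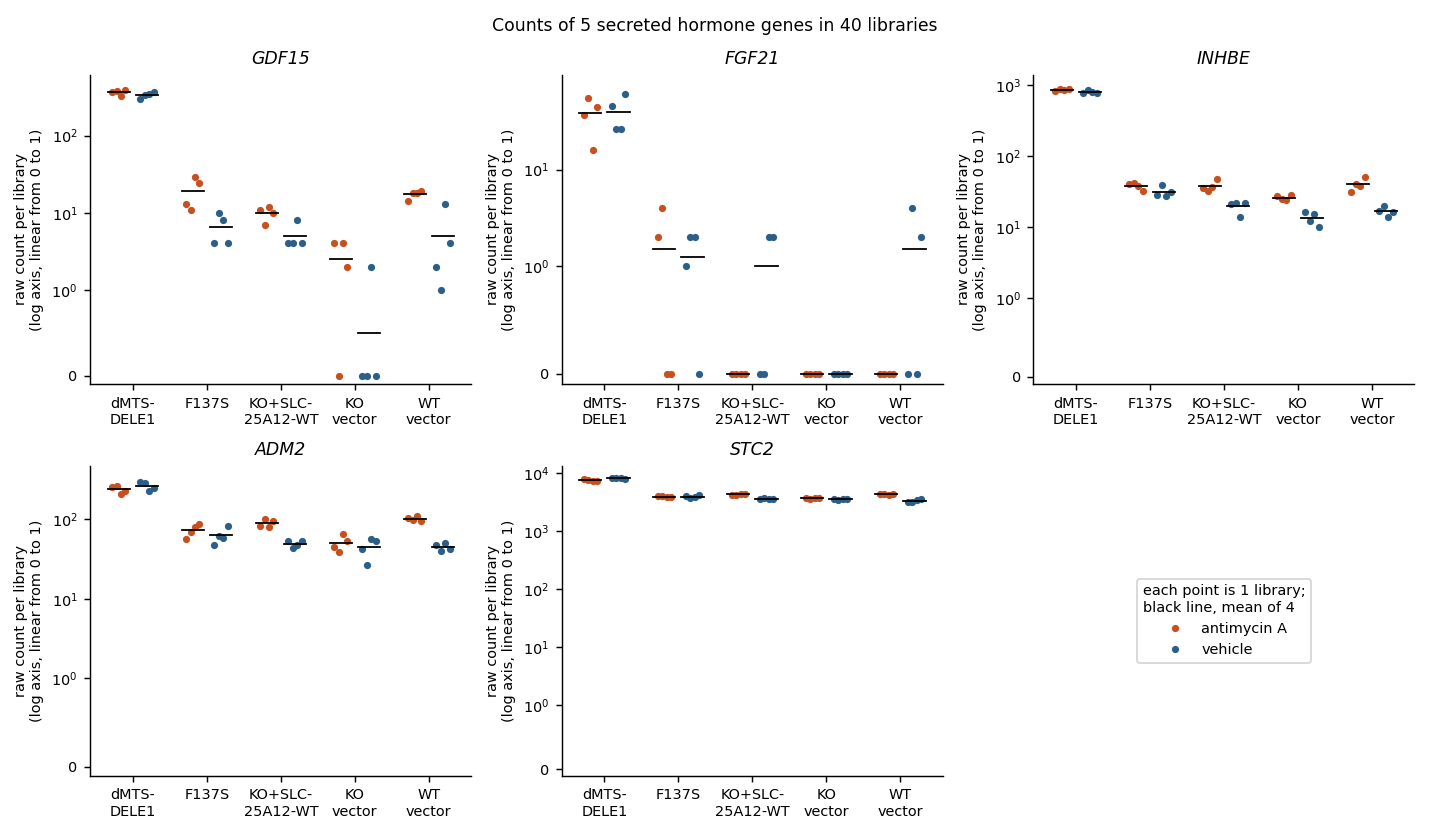
Raw counts per library (log axis, linear from 0 to 1) of the 5 hormone genes in 5 lines, with antimycin A libraries left of vehicle libraries, each point 1 library and each black line the mean of 4. dMTS-DELE1 libraries sit at 16 to 60 counts for FGF21 and at 7215 to 8310 for STC2, above all other libraries of the same gene.

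All 5 hormone genes were higher in dMTS-DELE1 cells than in F137S cells without antimycin A. These lines also differed in SLC25A12, as given below. Against a background of 41.8% of genes called and 17.7% called higher in vehicle, 5 of 5 rose. FGF21 passed the filter only through its counts in dMTS-DELE1 cells, so its rise was all but fixed by the filter and adds nothing to that count. GDF15, FGF21 and INHBE ranked 6, 9 and 10 from the top of 16739 genes by log2 fold change, ADM2 ranked 88 and STC2 395. In bulk RNA, more cells that express a gene and more RNA per cell cannot be told apart.

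GDF15 had 296, 331, 341 and 365 counts in the 4 dMTS-DELE1 libraries, against 4, 10, 8 and 4 in the 4 F137S libraries, all in vehicle. The groups were far apart, with a log2 fold change of 5.65 ± 0.27 (50.3-fold, adjusted p = 1.21e-24). In antimycin A it had 367, 374, 323 and 385 counts in dMTS-DELE1 cells, against 13, 11, 29 and 24 in F137S cells (4.22 ± 0.22, adjusted p = 1.11e-22).

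FGF21, the scarcest of the genes, had 45, 26, 26 and 60 counts in dMTS-DELE1 libraries, against 1, 2, 2 and 0 in F137S libraries in vehicle. The dMTS-DELE1 libraries varied most for this gene, with a coefficient of variation of 42.1%, and none overlapped the F137S libraries. The log2 fold change was 4.84 ± 0.61 (adjusted p = 2.43e-09), from only 5 F137S counts. In antimycin A the counts were 37, 55, 16 and 44 in dMTS-DELE1 cells and 2, 4, 0 and 0 in F137S cells (4.55 ± 0.59, adjusted p = 2.69e-09), or 5.58 without F137S antimycin replicate 2.

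INHBE gave 773, 845, 802 and 787 counts in dMTS-DELE1 cells and 28, 39, 27 and 31 in F137S cells in vehicle. Its log2 fold change of 4.68 ± 0.12 (25.5-fold, adjusted p = 7.11e-48) had a far smaller error than that of FGF21. In antimycin A the difference was 4.50 ± 0.12 (adjusted p = 1.64e-47), with 840 to 884 counts in dMTS-DELE1 cells and 32 to 42 in F137S cells.

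ADM2 rose less, with 294, 284, 228 and 251 counts in dMTS-DELE1 cells, against 48, 61, 59 and 83 in F137S cells in vehicle (2.07 ± 0.15, adjusted p = 1.92e-20). STC2 had 8310, 8177, 8291 and 7877 counts in dMTS-DELE1 cells, against 3947, 3774, 3800 and 4095 in F137S cells in vehicle. It rose by 1.06 ± 0.03 (2.09-fold, adjusted p = 4.28e-49), so the gene with the highest level had the smallest fold change of the 5. In antimycin A, where 54.3% of genes were called and 25.5% were called higher, ADM2 rose by 1.72 ± 0.15 and STC2 by 0.94 ± 0.03 (adjusted p = 3.77e-17 and 2.61e-45). SLC25A12 itself was also higher in dMTS-DELE1 cells than in F137S cells (1.00 ± 0.02 in vehicle, adjusted p = 1.46e-53), and its share in these differences was not tested.

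**Figure D2:**
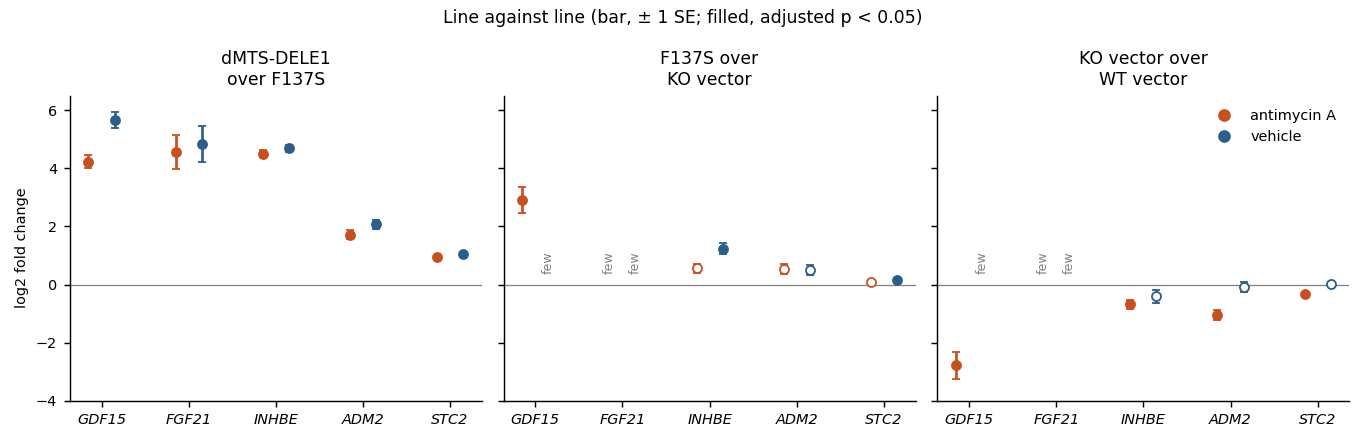
Log2 fold changes (± 1 SE) of the hormone genes between lines, in antimycin A (left point) and vehicle (right point), filled where the adjusted p was under 0.05; "few" marks genes with too few counts for a fold change. The panel for dMTS-DELE1 over F137S runs from 0.94 for STC2 to 5.65 for GDF15, and the panel for KO vector over WT vector is negative for the 4 genes read in antimycin A.

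Transcription factors of the stress response also changed in the same comparison. Of a list of 20 such factors and co-factors, 15 were higher in dMTS-DELE1 cells than in F137S cells in vehicle, 1 was lower and 4 did not pass, where 17.7% of all genes were higher and 24.1% lower, with a median log2 fold change of 0.33 beside -0.02 over all genes. The largest were NUPR1 (3.37 ± 0.14, adjusted p = 5.32e-25), a stress-induced chromatin protein, TRIB3 (2.30 ± 0.05, adjusted p = 8.28e-55), a pseudokinase that inhibits ATF4, and the ATF4 partners ATF3 (1.75 ± 0.04, adjusted p = 5.68e-51) and DDIT3 (1.73 ± 0.06, adjusted p = 1.15e-36). ATF4 mRNA itself rose by only 0.08 ± 0.02 (adjusted p = 0.000197), from a level that stayed between 596 and 764 CPM in all 10 groups.

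Of 14 tested genes listed as receptors and co-receptors of the hormones, 0 were higher in dMTS-DELE1 cells than in F137S cells in vehicle. Of the rest, 7 were lower and 7 did not pass. Over all genes 17.7% were higher and 24.1% lower, with 41.8% called. The lower ones included ACVR1C, a type I receptor of the activin family (-0.50 ± 0.12, adjusted p = 0.00028) and FGFR4, a receptor of the FGF family (-0.31 ± 0.05, adjusted p = 2.06e-07). RAMP1 (-0.44 ± 0.14, adjusted p = 0.00932) and RET (-0.34 ± 0.14, adjusted p = 0.0448) were lower too. In antimycin A, where RET was lower at -0.80 ± 0.14 (adjusted p = 5.16e-07), some genes of the list were higher. GFRAL, the receptor that binds GDF15, had 2 counts in 1 of the 40 libraries and 0 in the others.

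Of 13 tested relatives of the hormones, 3 were higher, 4 lower and 6 did not pass in vehicle. Beside this list and the next ones in this comparison, 17.7% of all genes were higher and 24.1% lower, with 41.8% called. FGF19, which is a hormone of the same FGF subfamily as FGF21 and had 4 to 9 counts in F137S libraries, rose by 2.20 ± 0.40 (adjusted p = 4.28e-06). It may have passed the filter only through dMTS-DELE1 libraries, which would favour that rise. INHBC, the activin subunit gene next to INHBE, rose by 2.09 ± 0.28 (adjusted p = 2.08e-09), and CALCB, of the calcitonin family like ADM2, by 0.80 ± 0.07 (adjusted p = 1.82e-15). BMP2 fell by 0.68 on the log2 scale (SE 0.20, adjusted p = 0.00308). Of 11 tested genes in a list of other stress factors, most of them secreted, 4 rose, 3 fell and 4 did not pass. The cytokine LIF (1.89 ± 0.19, adjusted p = 1.21e-12) and the angiogenic factor VEGFA (0.74 ± 0.04, adjusted p = 2.55e-26) were among those that rose, and so was TNFRSF10B (0.64 ± 0.03, adjusted p = 4.3e-32), which encodes a death receptor of the cell membrane. Among 9 tested proteases, inhibitors and partners, 1 rose, 2 fell and 6 did not pass. IGFBP5, a carrier of insulin-like growth factors, fell (-0.40 ± 0.04, adjusted p = 7.59e-13). In the list of the relay from mitochondria, 4 of 11 rose, 4 fell and 3 did not pass. Those that rose include DELE1 and SLC25A12, which come from introduced cDNAs, so this count cannot be compared with the share of all genes. Besides the introduced DELE1 (6.86 ± 0.04, adjusted p = 2.36e-49) and SLC25A12, the phosphatase subunit PPP1R15A, which reverses eIF2 phosphorylation, rose by 1.98 ± 0.04 (adjusted p = 5.69e-52).

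Some genes near the hormone genes on the chromosome also differed. FUT1, which shares the 165-base stretch printed above with FGF21, had 463 to 539 counts in dMTS-DELE1 libraries and 27 to 31 in F137S libraries in vehicle (4.12 ± 0.16, adjusted p = 6.82e-35). Its level per kilobase in dMTS-DELE1 cells, 3.66 CPM, was above that of FGF21, 0.942. INHBC, 3244 bases from INHBE, had 87, 71, 78 and 72 counts in dMTS-DELE1 cells, against 14, 17, 22 and 19 in F137S cells. On the other side of INHBE, 1759 bases away, GLI1 rose by 0.67 ± 0.21 (adjusted p = 0.00685).

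KLHDC7B, 59.5 kilobases from ADM2, ranked 1 of 16739 in vehicle, with 1132, 1226, 1166 and 1236 counts in dMTS-DELE1 cells and 2, 4, 10 and 10 in F137S cells (7.49 ± 0.28, adjusted p = 3.03e-19). MIOX, only 421 bases from ADM2, had 7, 21, 7 and 12 counts in dMTS-DELE1 cells and 10, 4, 6 and 0 in F137S cells in vehicle, which overlapped (1.21 ± 0.59, adjusted p = 0.0947). It rose in antimycin A, with 8 to 14 counts in dMTS-DELE1 cells and 0 to 4 in F137S cells (2.25 ± 0.73, adjusted p = 0.00636). KLHDC7B and MIOX had few counts in F137S cells. Both may have passed the filter only through dMTS-DELE1 libraries, as FGF21 did, which would favour a rise. Some of the nearest genes did not rise. PGPEP1 beside GDF15 (-0.00 ± 0.08) and SBF1 beside ADM2 did not pass in vehicle, and BCAT2 beside FGF21 was lower (-0.16 ± 0.04, adjusted p = 0.000666). Of 24 tested genes listed as neighbours, 10 rose, 4 fell and 10 did not pass in vehicle, where 17.7% of all genes were higher and 24.1% lower. They were listed by name, with earlier results of these data known and no limit on distance, so their count cannot be compared with these shares. CPEB4, listed with STC2, lies 560 kilobases away, and INHBC and DDIT3 are also in the lists of relatives and factors. The sources used here do not state strand use in the counting, so reads of overlapping genes cannot be told apart. MIR3189 lies inside GDF15, and an unnamed locus overlaps the end of INHBE.

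**Figure D3:**
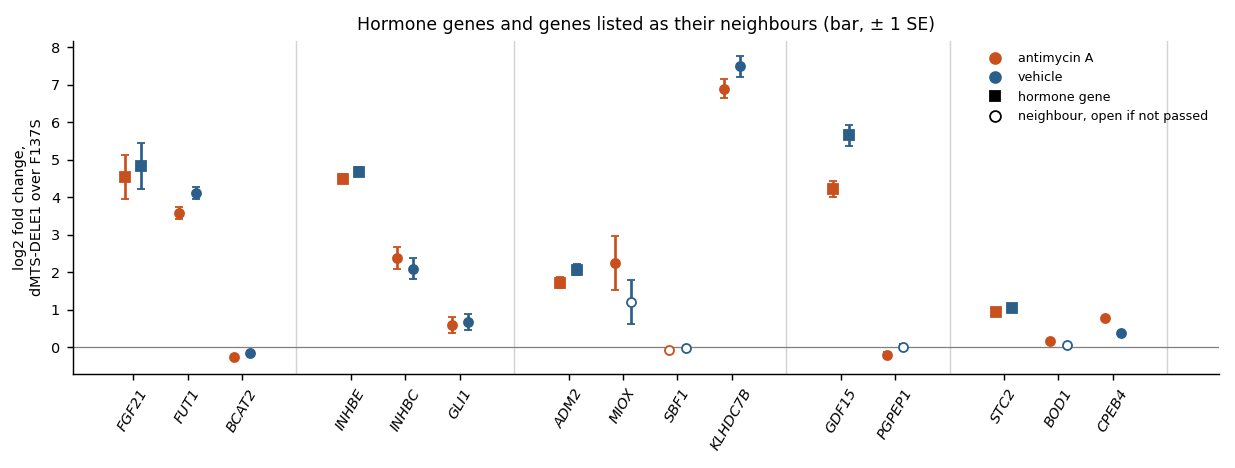
Log2 fold change (± 1 SE), dMTS-DELE1 over F137S, of the hormone genes (squares) and genes listed as their neighbours (circles, open where the adjusted p was 0.05 or more), in antimycin A and vehicle. FUT1 stands close to FGF21 at 4.12 in vehicle, INHBC at 2.09 is below INHBE at 4.68, and KLHDC7B at 7.49 is above ADM2 at 2.07.

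Antimycin A raised the hormone genes in WT-vector cells. Against a background of 51.9% of genes called and 25.5% called higher, 4 of the 4 genes with enough counts rose. GDF15 had 14, 18, 18 and 19 counts in antimycin A, against 2, 1, 13 and 4 in vehicle (1.72 ± 0.40, adjusted p = 0.000238). The lowest antimycin library was just above the highest vehicle library, replicate 3 with 13 counts, and without that library the log2 fold change was 2.80. INHBE had 31, 40, 38 and 51 counts in antimycin A, against 17, 20, 14 and 16 in vehicle (1.21 ± 0.17, adjusted p = 9.93e-09). ADM2 had 104, 97, 109 and 94 counts in antimycin A, against 48, 40, 50 and 42 in vehicle (1.12 ± 0.16, adjusted p = 1.22e-08), and neither gene's groups overlapped. STC2 had 4381, 4417, 4250 and 4385 counts in antimycin A, against 3202, 3186, 3423 and 3521 in vehicle. Its rise was the smallest at 0.35 ± 0.03 and the best resolved (adjusted p = 1.06e-18). FGF21 had 0 counts in the 4 antimycin libraries and 0, 4, 0 and 2 in the 4 vehicle libraries (exact permutation p = 0.429). A sum of 0 counts over 4 libraries allows up to 3.69 by the exact 95% Poisson interval, which covers counting error only.

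In the same comparison, of 20 transcription factors 12 rose, 4 fell and 4 did not pass, where 25.5% of all genes rose and 26.4% fell. NUPR1 (1.96 ± 0.16, adjusted p = 9.01e-15), ATF3 (1.58 ± 0.04, adjusted p = 1.36e-47), the AP-1 subunit JUN (1.27 ± 0.03, adjusted p = 4.82e-30) and DDIT3 (0.86 ± 0.07, adjusted p = 2.5e-19) led them, and ATF4 rose by 0.35 ± 0.02 (adjusted p = 1.22e-29). Of 14 receptor genes, 5 rose, 4 fell and 5 did not pass. They included FGFR3 (0.45 ± 0.04, adjusted p = 2.97e-11) and the growth factor receptor gene IGF1R (-0.49 ± 0.04, adjusted p = 1.86e-19). IGF1R was in the list but is not a receptor of the 5 hormones. Of 13 relatives, 2 rose, 2 fell and 9 did not pass, with BMP2 at -1.36 ± 0.21 (adjusted p = 3.34e-08) and ADM, the peptide gene closest to ADM2 in function, at 0.37 ± 0.07 (adjusted p = 1.18e-05). FUT1 rose by 1.28 ± 0.21 (adjusted p = 3.01e-07) while FGF21 beside it had 0 counts in antimycin A and 6 in vehicle over 4 libraries each. INHBC did not pass (-0.67 ± 0.38, adjusted p = 0.135).

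**Figure D4:**
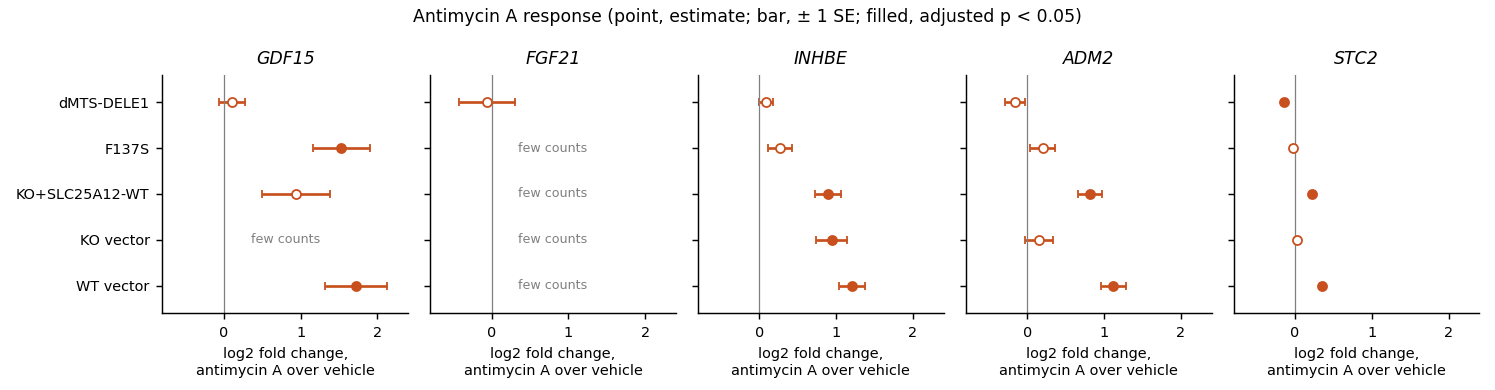
Antimycin A response (log2 fold change over vehicle, ± 1 SE) of each hormone gene by line, filled where the adjusted p was under 0.05. WT-vector cells have 4 filled points, from 0.35 for STC2 to 1.72 for GDF15, and dMTS-DELE1 cells have 1, for STC2 at -0.14.

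In KO-vector cells antimycin A raised INHBE, 1 of the 3 genes with enough counts, beside 51% of genes called and 26.4% called higher. INHBE had 27, 25, 24 and 28 counts in antimycin A, against 16, 12, 15 and 10 in vehicle (0.94 ± 0.20, adjusted p = 0.000234), with no overlap. ADM2 had 45, 39, 66 and 53 counts in antimycin A, against 42, 27, 56 and 54 in vehicle, and the groups overlapped (0.15 ± 0.18, adjusted p = 0.49). STC2 had 3658, 3614, 3720 and 3661 counts in antimycin A, against 3540, 3429, 3572 and 3567 in vehicle (0.03 ± 0.03, adjusted p = 0.424). GDF15 had 4, 0, 4 and 2 counts in antimycin A and 0, 0, 2 and 0 in vehicle (exact permutation p = 0.257). FGF21 had 0 counts in all 8 KO-vector libraries.

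The difference of the antimycin response, KO vector minus WT vector, passed for 2 of the 4 genes read, beside 1.57% of genes called and 0.729% called lower. Among the genes called, 53.4% had a higher difference, and 42.2% with DESeq2 size factors. STC2 responded less in KO-vector cells (-0.32 ± 0.04, adjusted p = 8.33e-09), and so did ADM2 (-0.97 ± 0.24, adjusted p = 0.0156). The ADM2 call was lost without KO-vector antimycin replicate 2 (-0.87, adjusted p = 0.0593), without KO-vector vehicle replicate 3 (-0.85, adjusted p = 0.0733) and without KO-vector vehicle replicate 4 (-0.88, adjusted p = 0.0622). The responses of INHBE (-0.27 ± 0.27, adjusted p = 0.822) and GDF15 (0.32 ± 0.74, adjusted p = 0.919) were not shown to differ, and that of GDF15 ran from -0.75 without WT-vector vehicle replicate 3 to 2.61 without KO-vector vehicle replicate 3. Among the transcription factors, where 0.836% of all genes had a higher difference, it was lower for 4 of 20 and higher for 0, with 16 not passing. These were ATF4 (-0.28 ± 0.02, adjusted p = 2.02e-14), CEBPG (-0.26 ± 0.04, adjusted p = 1.14e-06) and JUN (-0.25 ± 0.04, adjusted p = 0.000377), besides ATF3 (-0.22 ± 0.06, adjusted p = 0.0355). The ATF3 call was lost with counts halved (adjusted p = 0.0511) and without KO-vector antimycin replicates 2 or 3, KO-vector vehicle replicates 1, 2 or 4, WT-vector antimycin replicate 4 or WT-vector vehicle replicate 2 (-0.22 to -0.20, adjusted p of 0.0609 to 0.0983). Of the 11 other stress factors, 3 had a higher difference and 0 a lower one, with 8 not passing. SDF2L1 (0.34 ± 0.06, adjusted p = 0.000203), MANF (0.26 ± 0.05, adjusted p = 0.00524) and CRELD2 (0.25 ± 0.06, adjusted p = 0.00779) all encode proteins of the endoplasmic reticulum. No tested gene of the receptor, protease, relative or relay lists passed, and among the neighbours MARS1 was the 1 that did (-0.14 ± 0.03, adjusted p = 0.00507).

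Set against each other within antimycin A, KO-vector cells were below WT-vector cells for all 4 genes read, where 48% of genes were called and 24.5% were called lower. GDF15 differed most (-2.78 ± 0.46, adjusted p = 9.46e-07), followed by ADM2 (-1.05 ± 0.16, adjusted p = 5.36e-08), INHBE (-0.68 ± 0.16, adjusted p = 0.000518) and STC2 (-0.31 ± 0.03, adjusted p = 1.35e-16). In vehicle, where 48.3% of genes were called, 0 of the 3 genes read passed, with INHBE at -0.41 ± 0.21 (adjusted p = 0.197), ADM2 at -0.08 ± 0.18 (adjusted p = 0.742) and STC2 at 0.01 ± 0.03 (adjusted p = 0.841). GDF15 had 2 counts in the 4 KO-vector libraries and 20 in the 4 WT-vector libraries in vehicle, and the libraries overlapped (exact permutation p = 0.0571, and edgeR adjusted p = 0.00133). Without WT-vector vehicle replicate 2, the library with 1 count, the exact permutation p was 0.0286. In antimycin A the factor list was mostly lower in KO-vector cells, with 11 of 20 lower, 2 higher and 7 not passing beside 24.5% of all genes lower and 23.5% higher, led by NUPR1 (-1.36 ± 0.15, adjusted p = 8.02e-11) and the immediate early gene EGR1 (-1.03 ± 0.16, adjusted p = 1.56e-07). Of the 11 other stress factors, 9 were lower, 0 higher and 2 did not pass, among them ANGPTL4 (-1.18 ± 0.33, adjusted p = 0.00185) and the growth factor gene CSF1 (-0.64 ± 0.09, adjusted p = 8.37e-09). RAMP1 (-0.99 ± 0.13, adjusted p = 1.63e-09), a partner of CALCRL in binding peptides of the calcitonin family, was lower as well, in a receptor list with 5 lower, 4 higher and 5 not passing. The lists differed in vehicle too, where 25.6% of all genes were lower and 22.7% higher. There 10 of 20 factors were lower and 3 higher, with EGR1 at -1.06 ± 0.17 (adjusted p = 2.12e-07), and 8 of the 11 other stress factors were lower and 0 higher, with CSF1 at -0.53 ± 0.09 (adjusted p = 1.46e-06). RAMP1 was at -1.07 ± 0.13 in vehicle (adjusted p = 2.27e-10).

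**Figure D5:**
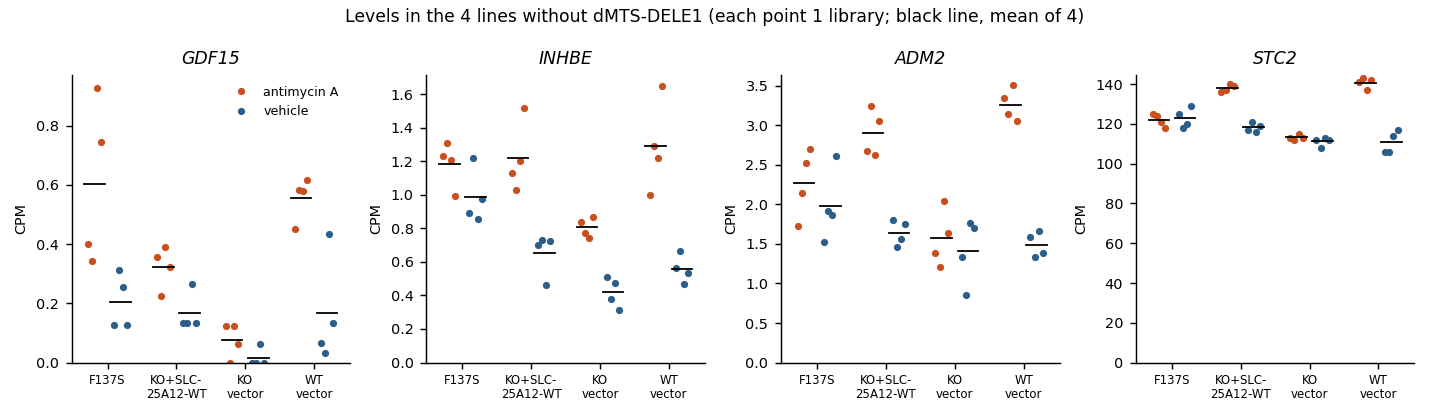
CPM per library of 4 hormone genes in the lines without dMTS-DELE1, antimycin A left of vehicle, each point 1 library and each black line the mean of 4. ADM2 averages 1.57 CPM in KO-vector and 3.26 in WT-vector antimycin libraries, and GDF15 averages 0.604 CPM in F137S, 0.0774 in KO-vector and 0.557 in WT-vector antimycin libraries.

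F137S cells and KO-vector cells were close over the transcriptome, and hormone genes stood among the few genes that differed. In vehicle, 14 genes of 16739 were called (0.0836%), all higher in F137S cells, and these included 2 of the 3 hormone genes read. INHBE had 28, 39, 27 and 31 counts in F137S cells, against 16, 12, 15 and 10 in KO-vector cells (1.23 ± 0.19, adjusted p = 0.000234), with no overlap. STC2 had 3947, 3774, 3800 and 4095 counts in F137S cells, against 3540, 3429, 3572 and 3567 in KO-vector cells (0.15 ± 0.03, adjusted p = 0.00348). The INHBE call was lost when the 2 groups were fitted alone (adjusted p = 0.0777) and with all counts halved (adjusted p = 0.0754). The STC2 call was lost without F137S vehicle replicate 4 (0.12, adjusted p = 0.0776) and without KO-vector vehicle replicate 2 (0.13, adjusted p = 0.0604). Leaving out 1 library took the count of genes called to between 5 and 11, with 8 genes without F137S vehicle replicate 1, 5 without F137S vehicle replicate 4 and 6 without KO-vector vehicle replicate 2. DESeq2's Wald test called 24.

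GDF15 had 4, 10, 8 and 4 counts in F137S cells and 0, 0, 2 and 0 in KO-vector cells in vehicle, which did not overlap (exact permutation p = 0.0286, the smallest possible, and edgeR adjusted p = 0.0574). Leaving out any 1 KO-vector vehicle library with 0 counts gave 0.0571. The ratio of the sums, 26 to 2, was 13 with an exact 95% interval of 3.25 to 113. That interval assumes independent counts, but of the 26 library values of GDF15 that lay between 1 and 20 counts, 19 were even, as were 9 of 10 for FGF21 and 55.1% to 58.7% of all such counts per library. The interval may therefore be too narrow, and the cause was not tested. ADM2 did not pass (0.49 ± 0.17, adjusted p = 0.584). Also among the 14 genes were SLC25A12 itself (9.23 ± 0.03, adjusted p = 2.45e-100) and NUPR1 (1.03 ± 0.19, adjusted p = 0.00587). The NUPR1 call was lost without F137S vehicle replicate 4 (0.93, adjusted p = 0.0623) and without KO-vector vehicle replicate 3 (0.91, adjusted p = 0.0532).

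In antimycin A, 19 genes were called between F137S and KO-vector cells (0.114%), again all higher in F137S cells, with GDF15 the 1 hormone gene of 4 read. The count of genes called was 12 without KO-vector antimycin replicate 1 and 34 by DESeq2's Wald test. GDF15 had 13, 11, 29 and 24 counts in F137S cells, against 4, 0, 4 and 2 in KO-vector cells (2.90 ± 0.45, 7.44-fold, adjusted p = 0.000118), and ranked 7 from the top by log2 fold change. INHBE (0.56 ± 0.16, adjusted p = 0.385), ADM2 (0.53 ± 0.17, adjusted p = 0.385) and STC2 (0.10 ± 0.03, adjusted p = 0.169) did not pass. FGF21 had 2, 4, 0 and 0 counts in F137S cells and 0 in each KO-vector library (exact permutation p = 0.429).

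Within F137S cells, antimycin A raised GDF15 (1.53 ± 0.37, adjusted p = 0.000406), 1 of 4 genes read beside 51.2% of genes called and 26.3% called higher. INHBE had 40, 42, 38 and 32 counts in antimycin A, against 28, 39, 27 and 31 in vehicle, and the groups overlapped (0.27 ± 0.16, adjusted p = 0.196). ADM2 (0.20 ± 0.16, adjusted p = 0.318) and STC2 (-0.02 ± 0.03, adjusted p = 0.61) did not pass. The difference of the response, F137S minus KO vector, passed for 0 of the 4 genes read and for 0 genes in all by edgeR or by DESeq2's Wald test, with 711 by edgeR at an unadjusted p under 0.05. It was -0.67 ± 0.25 for INHBE, -0.51 ± 0.85 for GDF15, 0.04 ± 0.24 for ADM2 and -0.05 ± 0.04 for STC2. With 1 library left out the GDF15 value ran from -2.81, without KO-vector vehicle replicate 3, to -0.16.

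In dMTS-DELE1 cells, antimycin A raised none of the 5 genes by edgeR, where 34.9% of all genes were called and 17.3% were called lower. GDF15 (0.11 ± 0.17, adjusted p = 0.682), INHBE (0.09 ± 0.09, adjusted p = 0.466), FGF21 (-0.06 ± 0.36, adjusted p = 0.92) and ADM2 (-0.16 ± 0.13, adjusted p = 0.387) did not pass. STC2 fell, with 7757, 7489, 7388 and 7215 counts in antimycin A, against 8310, 8177, 8291 and 7877 in vehicle (-0.14 ± 0.03, adjusted p = 3.81e-06), and the groups did not overlap. The difference of the response, dMTS-DELE1 minus F137S, passed for GDF15 (-1.43 ± 0.41, adjusted p = 0.0134) and STC2 (-0.13 ± 0.04, adjusted p = 0.0158), 2 of 5 genes beside 11.9% called and 3.7% called lower. The GDF15 call was lost without F137S antimycin replicate 3, the library with 29 counts (-1.17, adjusted p = 0.0612). The differences for FGF21 (-0.29 ± 1.15), INHBE (-0.17 ± 0.18) and ADM2 (-0.36 ± 0.21) did not pass.

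In the libraries labelled KO+SLC25A12-WT, antimycin A raised 3 of the 4 genes read, beside 52.3% of genes called and 25.9% called higher. INHBE had 35, 32, 37 and 47 counts in antimycin A, against 21, 22, 14 and 22 in vehicle (0.89 ± 0.17, adjusted p = 1.89e-05). ADM2 rose by 0.82 ± 0.16 (adjusted p = 1.42e-05) and STC2 by 0.22 ± 0.03 (adjusted p = 9.33e-11), while GDF15, with 7 to 12 counts in antimycin A and 4 to 8 in vehicle, did not pass (0.94 ± 0.44, adjusted p = 0.0691). It passed without antimycin replicate 2 (1.10, adjusted p = 0.046) and without vehicle replicate 3 (1.28, adjusted p = 0.031) of these libraries. None of the genes read differed from WT-vector cells by edgeR, in vehicle with 0% of genes called or in antimycin A with 0.00597%. Against KO-vector cells in antimycin A, the libraries labelled KO+SLC25A12-WT were higher for 4 of 4 genes read, by 2.01 ± 0.51 for GDF15 (adjusted p = 0.000898), 0.89 ± 0.16 for ADM2 (adjusted p = 3.51e-06), 0.60 ± 0.16 for INHBE (adjusted p = 0.00298) and 0.28 ± 0.03 for STC2 (adjusted p = 7.26e-15), beside 48.2% called and 24.7% called higher. In vehicle, 2 of 3 genes read were higher than in KO-vector cells, beside 47.8% called and 25.3% called higher. These were INHBE (0.64 ± 0.21, adjusted p = 0.0242) and STC2 (0.09 ± 0.03, adjusted p = 0.00453). GDF15 had 20 counts in the 4 labelled libraries and 2 in the 4 KO-vector libraries, without overlap (exact permutation p = 0.0286). The INHBE call was lost without replicate 1, 2 or 4 of the vehicle libraries labelled KO+SLC25A12-WT or KO-vector vehicle replicate 2 or 4 (0.53 to 0.61, adjusted p of 0.0542 to 0.0935). The difference of the antimycin response against KO-vector cells passed for STC2 (0.19 ± 0.04, adjusted p = 0.0011), 1 of 4 genes read beside 1.65% called and 0.705% called higher. It did not pass for ADM2 (0.67 ± 0.24, adjusted p = 0.178), which passed without KO-vector vehicle replicate 2 (0.86, adjusted p = 0.049). Because these libraries could not be told from WT-vector cells, no effect of adding the carrier back can be read from these values.

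F137S cells were higher than the libraries labelled KO+SLC25A12-WT for INHBE in vehicle (0.59 ± 0.18, adjusted p = 0.00995), 1 of 3 genes read beside 48.9% called and 23.2% called higher. That call was lost without F137S vehicle replicate 2 (0.46, adjusted p = 0.0782) and without replicate 3 of the libraries labelled KO+SLC25A12-WT in vehicle (0.45, adjusted p = 0.0748). In antimycin A, beside 49% called, 23.9% higher and 25.1% lower, GDF15 was higher (0.89 ± 0.34, adjusted p = 0.025) and STC2 was lower in F137S cells (-0.18 ± 0.03, adjusted p = 3.11e-08). The GDF15 call was lost without F137S antimycin replicate 3 (0.60, adjusted p = 0.167), F137S antimycin replicate 4 (0.76, adjusted p = 0.0885), or replicate 2 (0.74, adjusted p = 0.0914) or replicate 4 (0.88, adjusted p = 0.0526) of the libraries labelled KO+SLC25A12-WT in antimycin A. STC2 responded less to antimycin A in F137S cells than in those libraries (-0.24 ± 0.04, adjusted p = 1.69e-05, beside 1.28% called and 0.639% called lower).

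Ordered by mean CPM over the 10 groups, the genes shared their top but not the order below it. The 2 dMTS-DELE1 groups came first for every gene, and their libraries overlapped each other for GDF15, FGF21, INHBE and ADM2 but not for STC2. WT-vector cells in antimycin A stood next for INHBE (1.29 ± 0.272 CPM, SD), ADM2 (3.26 ± 0.208) and STC2 (141 ± 2.73), and F137S cells in antimycin A stood next for GDF15 (0.604 ± 0.279), overlapping WT-vector cells in antimycin A (0.557 ± 0.0727). For INHBE, ADM2 and STC2, WT-vector cells in antimycin A overlapped the group after them, the antimycin libraries labelled KO+SLC25A12-WT. KO-vector cells in vehicle were last for GDF15, INHBE and ADM2, and WT-vector cells in vehicle were last for STC2. In each case the last group overlapped the one above it. For FGF21 the 8 groups below the top were at 0 to 0.0498 CPM and each overlapped the next.

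As a description over the 10 group means of log2 CPM, the genes correlated with one another at r of 0.870 (FGF21 and ADM2) to 0.985 (INHBE and STC2). Over the 8 groups without dMTS-DELE1, r was 0.774 to 0.975 among GDF15, INHBE, ADM2 and STC2 and -0.324 to 0.201 between FGF21, with few counts there, and the others. By the same measure over the 10 groups, the genes most like GDF15 were SMAD7 (r = 0.977), ADM2 and AKNA (both r = 0.975). FGF21 was most like RERE (r = 0.992), BICRA and SOGA3 (both 0.990). Outside dMTS-DELE1 cells FGF21 stood at 0 to 0.0498 CPM, so its r values rest on the dMTS-DELE1 groups. The genes named here for the other hormone genes were also highest in those groups, so their r values lean on them too. CCDC122, named below for STC2, stood at 6.06 to 6.84 CPM outside dMTS-DELE1 cells and at 8.28 and 8.39 in them. Likeness to other genes was not computed without those groups. INHBE was most like AKNA (r = 0.989), TRIB3 and KLHL3 (both 0.988). ADM2 was most like SMAD7 (r = 0.993), NUPR1 (0.987) and STC2 (0.981), and STC2 was most like AKNA (r = 0.985), SETD1B and CCDC122 (both 0.984). These places were not stable: without the libraries labelled KO+SLC25A12-WT, 3 of the 3 genes were the same for ADM2, 2 for GDF15 and STC2 and 1 for FGF21 and INHBE, and with a prior count of 0.5 only 1 was the same for GDF15 and 2 for FGF21.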

How the data were processed

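Poly(A) RNA of HEK293T cells was sequenced as paired reads, per the labels' protocols. The authors deposited raw counts per gene symbol and library, made with HISAT2 2.1.0 and featureCounts 2.0.6 on hg38 per the submitters' processing notes. The sources used here give no settings, annotation or strandedness, nor whether reads or pairs were counted.

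Groups came from the sample titles. Counts were filtered with filterByExpr, scaled by TMM and fitted with edgeR 4.0.16 in R 4.3.3 (robust quasi-likelihood, 10 groups, no replicate block), with 22 contrasts adjusted by Benjamini-Hochberg over 16739 genes and a threshold of 0.05. The procedure was tested on simulated data. Log2 CPM for group correlations used a prior count of 2. Exon lengths came from GENCODE and sequences from RefSeq GRCh38.p14, which has no promoter entry for INHBE. Counting intervals cover counting error only.

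The 5 genes and all gene lists were chosen with earlier results of these data known. The genes named are these 5, SLC25A12, DELE1, ATF4, DDIT3, ATF3, up to 4 members of each list with the largest change among those that passed, the nearest genes on each side, and the 3 genes most like each in pattern. Counts of other genes beside them were given where a named result turned on them.

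Alternatives were DESeq2 1.42.0 size factors and Wald test, no filter, a block for the replicate number, a fit of only the groups compared, no libraries labelled KO+SLC25A12-WT, halved counts and each library left out. An edgeR test of genes with few counts was added after seeing the data. Same-numbered libraries of different groups had residuals that correlated at -0.00102 on average, so the numbers were not taken as pairs.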

Additional observations from a re-analysis of the deposited data

Results flagged for a closer look

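Of 50 groups of 4 libraries tested over the 5 genes, 4 held 1 library far from the other 3 in CPM. The rule is set to flag about 1 in 20 groups by chance. That rate does not hold for tied counts near 0, as in groups of FGF21 and GDF15, so the count of flags cannot be set against it. GDF15 stood at 0.063 CPM in KO-vector vehicle replicate 3, from 2 counts, and at 0 in the others. In the vehicle libraries labelled KO+SLC25A12-WT, replicate 3 was high for GDF15 (0.266 CPM, against 0.132, 0.133 and 0.133) and low for INHBE (0.465 CPM, against 0.699, 0.727 and 0.729). STC2 was low in KO-vector vehicle replicate 2 (108 CPM, against 112, 112 and 113).

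The antimycin response differed between lines by the edgeR interaction contrast in 6 cases. For STC2 the difference was -0.32 for KO vector minus WT vector (adjusted p = 8.33e-09), 0.19 for the libraries labelled KO+SLC25A12-WT minus KO vector (adjusted p = 0.0011), -0.24 for F137S minus the libraries labelled KO+SLC25A12-WT (adjusted p = 1.69e-05) and -0.13 for dMTS-DELE1 minus F137S (adjusted p = 0.0158). For ADM2 it was -0.97 for KO vector minus WT vector (adjusted p = 0.0156), and for GDF15 it was -1.43 for dMTS-DELE1 minus F137S (adjusted p = 0.0134). These contrasts share groups of libraries.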

How the results depend on the processing

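Of 86 log2 fold changes of the hormone genes, 86 kept their direction and side of the threshold with the replicate block, 85 with DESeq2 size factors, 85 without the filter and 82 with counts halved. The same held for 80 of 82 by DESeq2's Wald test, 79 of 83 with the groups alone, 53 of 53 without the libraries labelled KO+SLC25A12-WT and 831 of 856 with 1 library left out. No direction reversed where a call was made. With the replicate block, 0 genes instead of 1 differed between the libraries labelled KO+SLC25A12-WT and WT vector in antimycin A, as with counts halved or the groups alone. In vehicle the groups alone gave 1 instead of 0.

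INHBE lost its call in vehicle with counts halved and with the groups alone for F137S minus KO vector (1.23 and 1.23), F137S minus the libraries labelled KO+SLC25A12-WT (0.60 and 0.59) and those libraries minus KO vector (0.63 and 0.64). STC2 passed for F137S minus the libraries labelled KO+SLC25A12-WT in vehicle with size factors (0.07), the Wald test (0.07), the groups alone (0.06) and no filter (0.08). ADM2 passed for the same lines in antimycin A with counts halved (-0.35), and GDF15 for antimycin A in the libraries labelled KO+SLC25A12-WT by the Wald test (0.97). For GDF15 in vehicle, edgeR gave 0.0574 for F137S against KO vector and 0.00133 for KO vector against WT vector, where exact permutation gave 0.0286 and 0.0571. Genes called for F137S minus KO vector numbered 34 in antimycin A and 24 in vehicle by the Wald test, and 1 for the difference of response with the groups alone and without the libraries labelled KO+SLC25A12-WT. The cause was not tested.

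With 1 library left out, ADM2 ran from -1.16 to -0.85 for the difference KO vector minus WT vector, 0.55 to 0.86 for the libraries labelled KO+SLC25A12-WT minus KO vector, and -0.46 to -0.25 for F137S minus those libraries in antimycin A. GDF15 ran from 0.85 to 1.28 for antimycin A in those libraries, -1.73 to -1.17 for the difference dMTS-DELE1 minus F137S, and 0.60 to 1.07 for F137S minus those libraries in antimycin A. INHBE in vehicle ran from 0.45 to 0.65 for F137S minus those libraries and 0.53 to 0.78 for those libraries minus KO vector. STC2 in vehicle ran from 0.12 to 0.16 for F137S minus KO vector and 0.03 to 0.07 for F137S minus those libraries. Exact permutation p in vehicle ran from 0.0286 to 0.143 for FGF21 and 0.0286 to 0.0571 for GDF15 in F137S against KO vector, and 0.0286 to 0.229 for GDF15 in KO vector against WT vector. Genes called ran from 5 to 11 in vehicle and 12 to 28 in antimycin A for F137S minus KO vector, 180 to 247 for the difference of those libraries minus KO vector, and 0 to 1 for those libraries minus WT vector in antimycin A. FGF21 and, outside dMTS-DELE1 cells, GDF15 are limited by their few counts.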
